A study of Mus musculus with 5 samples.

Results

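The genes described here encode the nuclear pore complex and the soluble factors that carry cargo through it. They were taken from the deposited count table by symbol: all Nup genes with a number, the importin alpha genes (Kpna), Kpnb1, the Ipo, Xpo and Tnpo genes, and Ran, Rangap1 and Ranbp2. The rule found 45 of the 12370 symbols in the table, 21 nucleoporins (Ranbp2 included) and 24 transport receptors and Ran cycle genes. All 45 passed the filter on low counts. RNA came from lenses of mouse embryos at embryonic day 14, in 3 control and 2 N-myc knockout libraries. Both groups carried loxP-flanked N-myc alleles. The controls had no Cre. The labels name a control genotype with loxP-flanked N-myc alone and another that adds loxP-flanked c-myc, but not which of them each control library had. The knockouts were heterozygous for Mlr10-Cre, a transgene in which an alpha-A crystallin promoter with an added Pax6 binding site drives the Cre recombinase in the lens. No control carried the transgene, so effects of Cre and of the N-myc deletion cannot be told apart. Each library came from pooled lenses, which had been collected animal by animal, and the labels do not say how many animals a pool held.

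The nuclear pore complex is a ring of many copies of each nucleoporin that spans the nuclear envelope. Its outer and inner rings form a scaffold, and nucleoporins rich in phenylalanine and glycine repeats fill the channel and contact the transport receptors. Importins bind cargo in the cytoplasm and release it when they meet Ran bound to GTP in the nucleus, whereas exportins bind their cargo together with Ran-GTP and release it when the GTP is hydrolysed. N-myc and its relative c-myc are transcription factors that bind, with their partner Max, to the E-box CACGTG, and growing cells that make many ribosomes depend on heavy traffic through the pore. Lens fibre cells later lose their nuclei.

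The libraries held between 13162384 and 13746416 counts, and the members took 0.762% to 0.802% of the counts of control libraries and 0.701% and 0.717% of those of the knockouts. Mycn, the gene for N-myc, had 162.0, 148.4 and 140.3 CPM (a count scaled to its library size, with totals adjusted by the TMM method) in control replicates 1 to 3 and 57.3 and 81.9 CPM in knockout replicates 1 and 2. Both knockout libraries thus lay below each control library, and the log2 fold change was -1.11 (SE 0.15, edgeR adjusted p = 0.0097). The 10 lens fibre markers (Cryaa, Mip, Bfsp1 and others) were all in the table and summed to between 88532 and 122555 CPM, so each library held the RNA its lens label implies, and 4 of them were lower in the knockouts. Of markers for other cells, 8 of 9 retina genes tested were higher in the knockouts, with sums of 71.5 to 73.5 CPM in the controls and 113.6 and 227.5 CPM in knockout replicates 1 and 2. The 10 mesenchyme markers summed to 586 to 870 CPM in the controls and to 2381 and 738 CPM in the knockouts, and 3 of them were higher. The 8 endothelial markers summed to 242 to 290 and to 242 and 252 CPM. Of the endothelial markers 1 was lower. Of 6 lens epithelium markers 1 was higher (sums of 1020 to 1108 CPM in the controls, 1124 and 1160 CPM in the knockouts), and of 6 macrophage markers 1 was higher (21.9 to 41.7, then 43.8 and 45.1 CPM). Red blood cell RNA was present. The 7 genes in the table summed to 81.7 to 121.1 CPM in the controls and 81.2 and 77.9 CPM in the knockouts. Nearly all of it came from Hbb-y, Hba-x and Alas2. The adult globin genes Hba-a1, Hba-a2 and Hbb-bt were at 0 in every library. Whether these zeros came from absent RNA or from how reads were counted was not tested. What part these other cell types had in the results was not tested. In bulk tissue fewer cells of a type and less RNA per cell cannot be told apart.

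The members that passed the test in the N-myc knockout lenses were all lower, and they were transport receptors and Ran. Of the 45 members, 9 fell, 0 rose and 36 did not pass the test (edgeR adjusted p under 0.05). The 9 were the importins Ipo7, Ipo11, Ipo4 and Tnpo3, the adaptors Kpna3 and Kpna4, the exportins Xpot and Xpo1, and Ran itself. For all tested genes the share called was 16.5%, with 8.51% lower and 7.98% higher. With library totals as the only scaling, 1511 of all genes were higher and 637 lower, in place of 960 and 1024, and 6 members fell and 0 rose. At an unadjusted p under 0.05, 16 members were lower and 0 higher, against 2122 and 2189 of the 12035 genes tested. DESeq2 and limma-voom called 12 and 10 members lower, against 1207 and 910 of all genes, and also 0 higher. A total of 40 of the 45 members (88.9%) had a log2 fold change below 0, against 49.8% of all tested genes, and the median was -0.18 against 0.00. With library totals only, the medians were -0.10 and 0.087, and Ipo8, Kpna2, Rangap1, Nup107, Nup133, Nup210, Nup214, Nup37 and Nup93 moved above 0. In 27 members both knockout libraries lay below all controls, and in 0 they lay above, while 27.0% and 25.5% of all tested genes were of these kinds (52.5% in all).

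The 9 calls belonged to the 24 receptors and Ran cycle genes (median log2 fold change -0.20), and 0 of the 21 nucleoporins passed with edgeR (median -0.15). At an unadjusted edgeR p under 0.05, 12 receptor or Ran cycle genes and 4 nucleoporins were lower, and DESeq2 added the nucleoporin Ranbp2. Of the receptors and Ran cycle genes 21 (87.5%) lay below 0, as did 19 of the nucleoporins (90.5%), against 49.8% of all tested genes. Both knockout libraries lay below all controls in 16 and 11 of them, against 27.0% of all tested genes. The difference between these classes was not tested. Both classes follow the symbol rule, and pore proteins outside it, of which Seh1l and Tmem33 fell, are described below. The standard errors were alike, 0.075 to 0.18 for the receptors and Ran cycle genes and 0.079 to 0.23 for the nucleoporins. Summed over members, the receptors and Ran cycle genes stood at 5975 ± 115 CPM in the controls (SD, n = 3) and 4966 ± 277 CPM in the knockouts (SD, n = 2), or 83.1% of the control level. The nucleoporins stood at 2069 ± 87.8 and 1884 ± 37.9 CPM, or 91.1%.

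**Figure D1:**
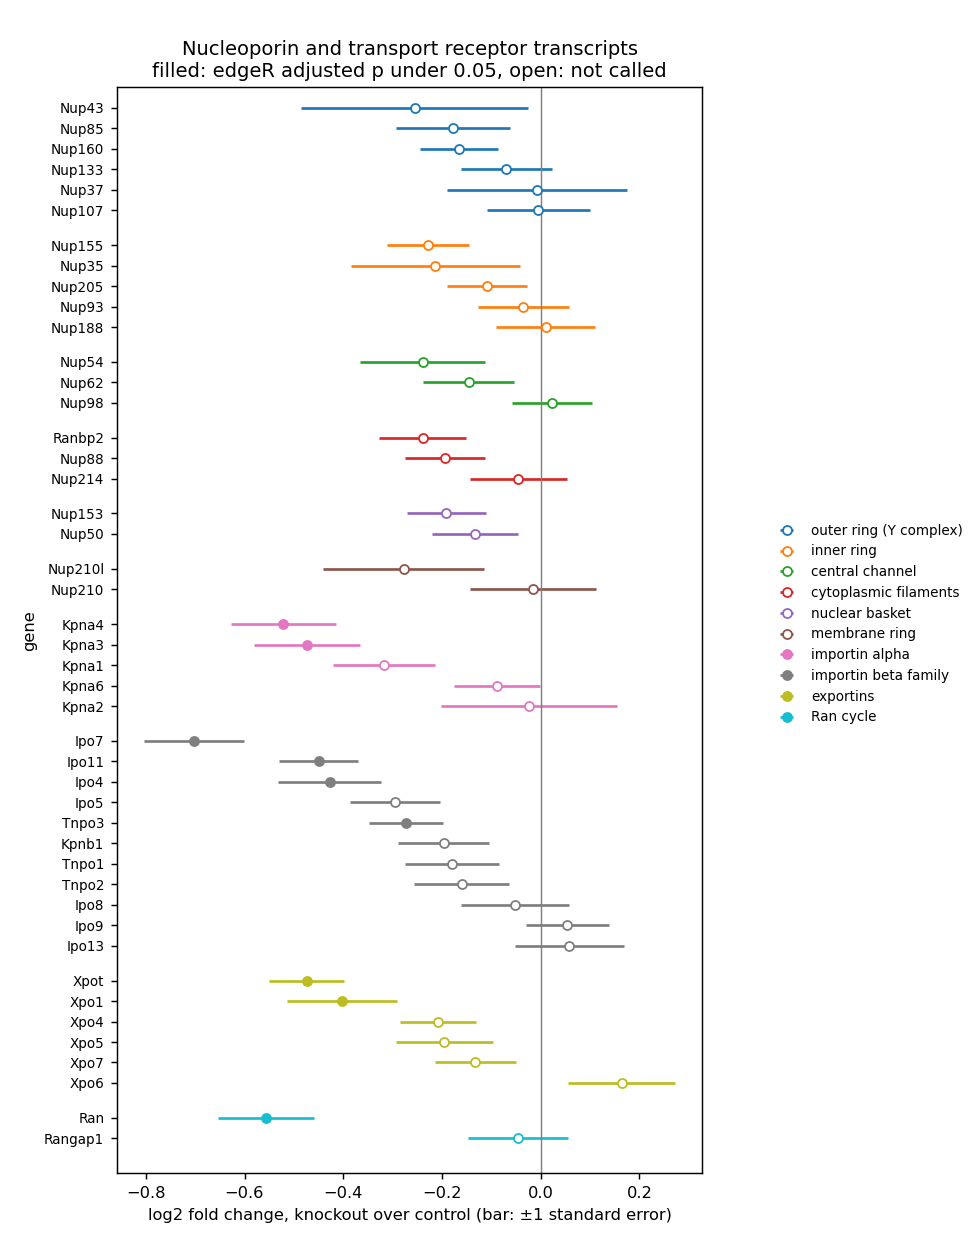
Log2 fold change of each of the 45 members (x axis, knockout over control, bars of 1 standard error), ordered by role and coloured by it. Filled points are the 9 members that passed the edgeR threshold, all of them receptors or Ran and all below 0.

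The calls rested on few libraries. Without control replicate 2, 0 members passed (13 at an unadjusted p under 0.05) and 0.317% of all tested genes did, and without control replicate 3 or knockout replicate 1 only Ipo7 passed, against 1.98% and 2.42% of all tested genes. The median of the members moved less, from -0.13 to -0.18 on the log2 scale over the fits that left out 1 library. Mycn itself also missed the threshold without control replicate 2, with an edgeR adjusted p of 0.056. Knockout replicate 1, which had the lower Mycn level and the most mesenchyme RNA, had lower values than knockout replicate 2 in 30 of the 45 members and in 7 of the 9 called ones. The median deviation of the members from the control mean was -0.17 in knockout replicate 1 and -0.13 in knockout replicate 2 on the log2 (CPM + 1) scale, and between -0.03 and 0.08 in the controls.

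**Figure D2:**
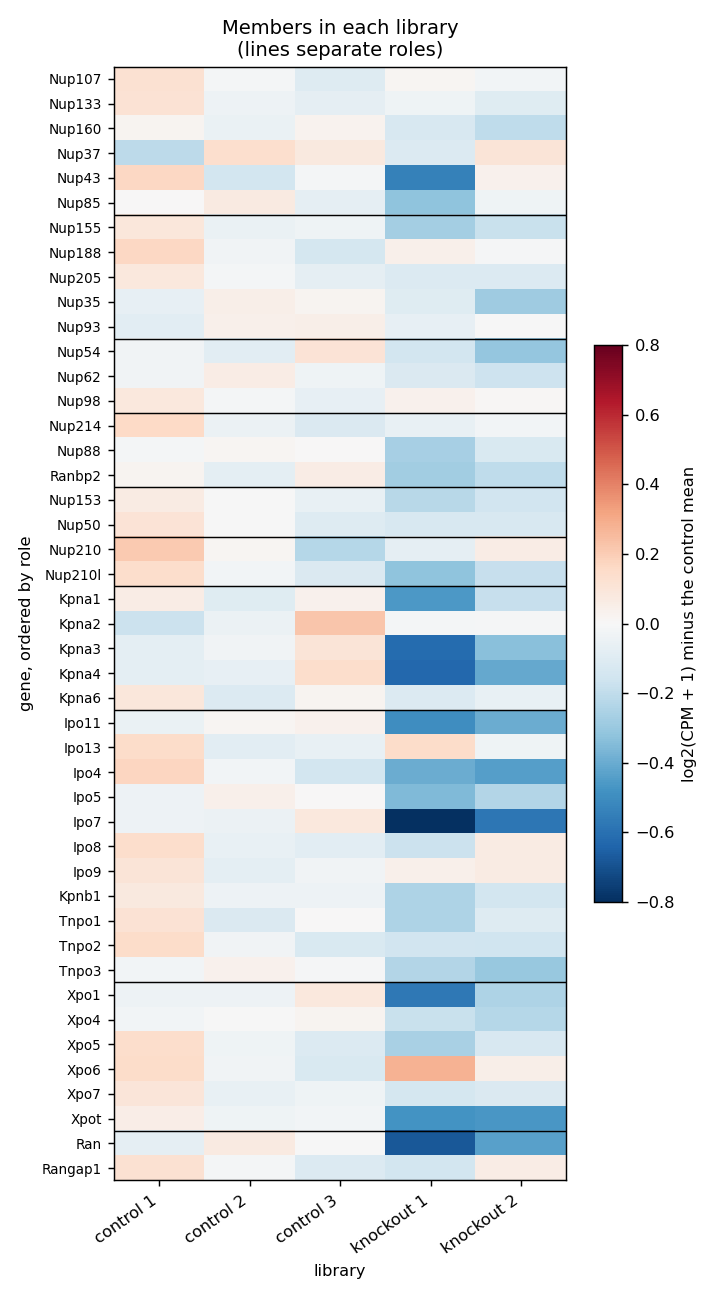
Deviation of log2 (CPM + 1) from the control mean (colour) for each member (rows, grouped by role) in each library (columns). The blue cells of both knockout columns gather in the importin, exportin and Ran rows, with knockout 1 the darker for most of them, and control 1 tends to red.

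Ran is the small GTPase that gives nuclear transport its direction. Its transcript (chromosome 5, 129020069 to 129024323, GRCm38) stood at 173.6, 191.9 and 182.5 CPM in the controls and at 113.8 and 134.5 CPM in the knockouts. Over 27.3% of its length the Ran transcript has a copy of 97.3% identity, Gm13461, that could take or share reads. The groups did not overlap, and Ran was 1.47-fold lower (log2 fold change -0.56, with SE 0.098 and adjusted p = 0.016 in edgeR). Without control replicate 2, without control replicate 3 and without knockout replicate 1 it missed the threshold, with an adjusted p of at most 0.080. Rangap1, the activator that makes Ran hydrolyse its GTP at the cytoplasmic face of the pore, did not pass (edgeR adjusted p = 0.77). Rangap1 had 122.0, 111.2 and 104.1 CPM in the controls and 101.1 and 116.7 CPM in the knockouts, so the groups overlapped. Its log2 fold change of -0.05 had a 95% interval from -0.28 to 0.19. With trends on transcript length and GC content removed, Rangap1 was at -0.21 (edgeR adjusted p = 0.16) and Ran at -0.43.

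The importin beta family holds the receptors that bind cargo and the pore directly. Of its 11 members, 4 fell and 7 did not pass. Ipo7 had the lowest fold change of all members. It imports ribosomal proteins and other basic cargo. Its transcript (chromosome 7, 110018274 to 110056609) was at 294.3, 292.3 and 321.1 CPM in the controls and at 169.8 and 202.1 CPM in the knockouts. Each knockout library was thus below each control, by 1.63-fold in the fit (log2 fold change -0.70, with SE 0.10 and adjusted p = 0.012 in edgeR). Ipo7 passed in 14 of its 15 alternatives, the exception being the fit without control replicate 2 (0.058). Ipo8, a close relative, had 337.7, 293.9 and 289.0 CPM against 271.2 and 320.6 CPM, a log2 fold change of -0.05 (95% interval -0.31 to 0.20) and overlapping groups.

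Ipo11, Ipo4 and Tnpo3 were the other importins that fell. Ipo11, an importin of a ubiquitin-conjugating enzyme (chromosome 13, 106794439 to 106936958), was at 100.3, 105.0 and 106.7 CPM in the controls and 73.4 and 78.9 CPM in the knockouts, 1.37-fold lower (log2 fold change -0.45, with SE 0.080 and adjusted p = 0.016 in edgeR). Ipo4, an importin of histones and of ribosomal proteins (chromosome 14, 55625400 to 55635957), was at 165.4, 144.8 and 132.6 CPM and at 111.4 and 108.1 CPM, 1.34-fold lower (log2 fold change -0.43, with SE 0.10 and adjusted p = 0.034 in edgeR). The controls of Ipo4 were spread more widely than its knockouts, and control replicate 3 was the nearest to them. Of the exon bases of Ipo4 in GENCODE, 55.3% are shared with another annotated gene on the same strand, Gm49378, so its count depends on how such reads were assigned. Tnpo3, which imports serine- and arginine-rich splicing factors (chromosome 6, 29540827 to 29609887), fell less, from 192.7, 200.2 and 194.4 CPM to 165.9 and 158.3 CPM (1.21-fold, log2 fold change -0.27, with SE 0.075 and adjusted p = 0.045 in edgeR). Its controls lay close together, its adjusted p was just under the threshold, and it passed in 8 of 15 alternatives. Without control replicate 2, control replicate 3 or knockout replicate 1 none of these 3 importins passed, and without knockout replicate 2 Ipo4 and Tnpo3 did not. Over the 15 alternatives the highest adjusted p was 0.097 for Ipo11, 0.13 for Ipo4 and 0.16 for Tnpo3.

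The most abundant members of this family did not pass. Per kilobase of transcript, Ipo5 and Kpnb1 were the highest of all 45 members in the controls, at 290.3 and 160.1 CPM per kilobase, followed by Ran at 75.4, Ipo7 at 63.5 and Kpna3 at 61.7. Ipo5, an importin of ribosomal proteins and histones, had 1272, 1348 and 1314 CPM in the controls and 1025 and 1113 CPM in the knockouts. The groups were apart, but its log2 fold change of -0.30 (SE 0.091) had an edgeR adjusted p of 0.059, and it passed with DESeq2, with limma-voom and without control replicate 1. Kpnb1, importin beta itself, the partner of the importin alpha adaptors, was at 994.6, 918.4 and 917.6 CPM and at 795.4 and 851.7 CPM (log2 fold change -0.20, with SE 0.092 and adjusted p = 0.17 in edgeR). Tnpo1 and Tnpo2, the transportins that carry RNA-binding proteins, had log2 fold changes of -0.18 and -0.16 and did not pass either. Ipo9 and Ipo13, the latter both an importin and an exporter of a translation initiation factor, had log2 fold changes above 0, at 0.05 and 0.06, with 95% intervals from -0.14 to 0.25 and from -0.20 to 0.31.

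**Figure D3:**
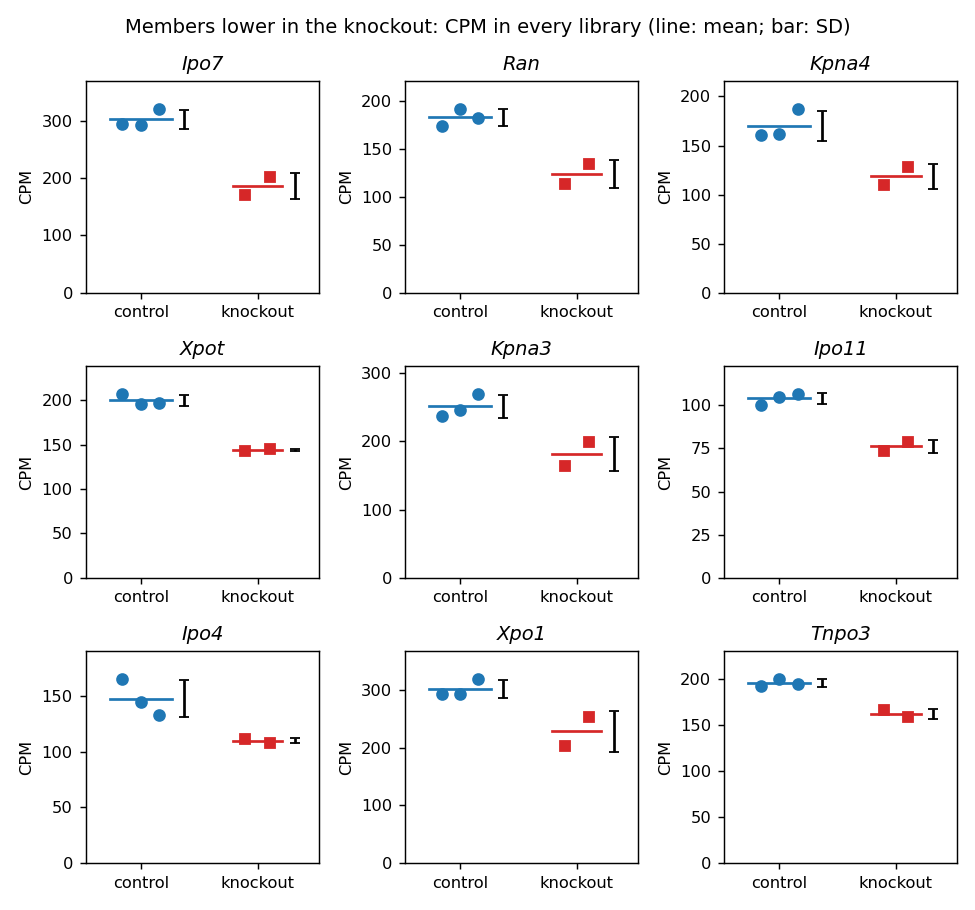
CPM of the 9 members that fell, in each library (circles: 3 controls; squares: 2 knockouts; lines: group means; bars: SD), on axes that start at 0. In each panel both knockout points lie below the 3 control points, and the gap is widest for Ipo7.

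Importin alpha proteins are adaptors that recognise the classical nuclear localisation signal and bind importin beta. Of the 5 genes measured, Kpna3 and Kpna4, close relatives that form 1 subfamily, fell, and Kpna1, Kpna2 and Kpna6 did not pass. Kpna4 (chromosome 3, 69067149 to 69127113) went from 160.7, 162.2 and 187.6 CPM in the controls to 109.4 and 127.6 CPM in the knockouts, 1.44-fold lower (log2 fold change -0.52, with SE 0.11 and adjusted p = 0.022 in edgeR). Kpna3 (chromosome 14, 61365211 to 61439874) went from 237.4, 246.1 and 269.6 CPM to 163.2 and 198.4 CPM, 1.39-fold lower (log2 fold change -0.47, with SE 0.11 and adjusted p = 0.030 in edgeR). In both genes control replicate 3 was the highest library and knockout replicate 1 the lowest. Neither passed without control replicate 2, control replicate 3 or knockout replicate 1, and the highest adjusted p over the alternatives was 0.12 for Kpna4 and 0.29 for Kpna3.

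Kpna1 followed with 180.8, 162.6 and 178.0 CPM in the controls and 126.2 and 152.7 CPM in the knockouts (log2 fold change -0.32, with SE 0.10 and adjusted p = 0.068 in edgeR). It passed with DESeq2 and without knockout replicate 2. Kpna6, a relative of Kpna1, had a log2 fold change of -0.09 (95% interval -0.29 to 0.11). Kpna2, the importin alpha of dividing cells, stood at only 8.54 to 11.5 CPM in the controls and at 9.66 and 9.68 CPM in the knockouts. Its level is uncertain, because 5 other annotated genes hold near-identical copies of its transcript, and the closest, Gm10184, matches 95.8% of it at 99.9% identity. None of these 5 is in the table used here.

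Exportins carry cargo out of the nucleus. Of 6 measured, Xpot and Xpo1 fell. Xpot, the exportin of transfer RNAs (chromosome 10, 121587380 to 121626332), had 207.3, 195.6 and 197.0 CPM in the controls and 143.2 and 144.8 CPM in the knockouts, 1.39-fold lower (log2 fold change -0.47, with SE 0.076 and adjusted p = 0.013 in edgeR). Its knockout libraries were nearly equal, unlike those of Ran, Ipo7 or Xpo1. Its log2 fold change ran from -0.48 to -0.39 over its 15 alternatives, the narrowest range among the called members, although it too missed the threshold without control replicate 2 or 3 or knockout replicate 1 (highest adjusted p 0.063). Over 42.0% of its length Xpot has a copy of 96.2% identity, Gm7389, that could take or share reads.

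Xpo1, which exports proteins with leucine-rich export signals and the ribosomal subunits with their adaptors (chromosome 11, 23256041 to 23298249), was at 293.2, 293.4 and 319.6 CPM in the controls and at 203.0 and 253.9 CPM in the knockouts. The knockout libraries differed from each other by more than the controls did, and the fall was 1.32-fold (log2 fold change -0.40, with SE 0.11 and adjusted p = 0.045 in edgeR). It was among the least steady calls, passing in 7 of 15 alternatives with adjusted p up to 0.27, and of the fits that left out 1 library it passed only in the one without knockout replicate 2. The exportins Xpo4, Xpo5, which carries microRNA precursors, and Xpo7 had log2 fold changes of -0.21, -0.20 and -0.13, and their groups did not overlap, but none of them passed. Xpo6, the exportin of actin, was the member with the highest fold change: it had 146.7, 129.6 and 121.4 CPM in the controls and 160.3 and 136.8 CPM in the knockouts (log2 fold change 0.16, 95% interval -0.09 to 0.41).

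None of the 21 nucleoporins under the rule passed with edgeR, and among them Ranbp2 and Nup155 had the smallest adjusted p-values. Seh1l, an outer ring gene outside the rule, did pass and is described below. Ranbp2, the large cytoplasmic filament protein that holds Rangap1 at the pore, was the highest of the 21 per kilobase (52.0 CPM per kilobase in the controls). It had 506.7, 473.7 and 519.7 CPM in the controls and 412.7 and 434.7 CPM in the knockouts, which do not overlap (log2 fold change -0.24, with SE 0.088 and adjusted p = 0.092 in edgeR), and it passed with DESeq2 (0.021). Its neighbours Nup88 and Nup214, which bind each other on the cytoplasmic side, had log2 fold changes of -0.19 and -0.05. Nup153, which anchors the nuclear basket, was at 201.1, 192.1 and 184.1 CPM and at 164.6 and 172.5 CPM (log2 fold change -0.19, with SE 0.079 and adjusted p = 0.13 in edgeR). Nup50, a mobile partner of Nup153 and importin alpha, had a log2 fold change of -0.13.

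In the scaffold, Nup155 of the inner ring had 162.1, 146.6 and 148.9 CPM in the controls and 126.0 and 134.4 CPM in the knockouts (log2 fold change -0.23, with SE 0.083 and adjusted p = 0.092 in edgeR). Nup205, a large inner ring protein, had a log2 fold change of -0.11 (95% interval -0.30 to 0.08), and Nup188, its relative, one of 0.01 (-0.22 to 0.24). The other 2 inner ring genes, Nup35 and Nup93, lay at -0.21 and -0.04, and both were above 0 once the length and GC trends had been removed. The level of Nup35 is uncertain, because another gene, Gm4353, matches 99.2% of its transcript at 99.6% identity. The 6 members assigned to the outer ring, or Y complex, all had values below 0 but none passed. Seh1l, also of this ring but outside the rule, did pass. Nup107, Nup133 and Nup37 lay above 0 with library totals as the only scaling. Nup160 was at 78.9, 74.8 and 79.4 CPM against 71.1 and 67.4 CPM (log2 fold change -0.17, with SE 0.079 and adjusted p = 0.17 in edgeR). Nup85, the highest of these 6 members per kilobase at 17.8 CPM per kilobase, had a log2 fold change of -0.18. The other 4 outer ring genes (Nup107, Nup133, Nup37 and Nup43) lay between -0.26 and 0.00, at 9.24 to 55.5 CPM in the controls.

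In the central channel, Nup98, which also serves messenger RNA export, had 184.8, 171.9 and 165.9 CPM in the controls and 178.6 and 175.4 CPM in the knockouts. Both knockout values lay inside the control range, and the log2 fold change was 0.02 (95% interval -0.16 to 0.21). Nup62 and Nup54, which form the channel's coiled-coil trimer with Nupl1, had log2 fold changes of -0.15 and -0.24 (edgeR adjusted p = 0.29 and 0.21). Nupl1, outside the rule, had one of -0.28 (edgeR adjusted p = 0.053), with both knockout libraries below all controls. Nup54 has a copy, Gm15790, of 98.0% identity over 53.3% of its transcript. In the membrane ring, Nup210 was spread from 70.6 to 95.8 CPM in the controls, which held both knockout values of 78.6 and 86.4 CPM (log2 fold change -0.02). Its relative Nup210l was the lowest member per kilobase (1.91 CPM per kilobase in the controls, log2 fold change -0.28, edgeR adjusted p = 0.26).

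Members with AT-rich transcripts tended to have the lower fold changes, as did AT-rich genes at large. Spearman's rho of GC content with log2 fold change was 0.53 over the 45 members and 0.46 over 11804 tested genes with a known transcript, and these genes share the same 5 libraries and are not independent. Kpna3 (39.6% GC), Kpna4 (40.0%), Ipo7 (40.3%) and Xpo1 (40.4%) were among the most AT-rich members, whereas Ipo4 (56.2%) was GC-rich and fell as well. When the trends on length and GC content had been taken out of every library, 11 members fell and 0 rose, against 6.25% of all genes called lower, and the median of the members was -0.17. Of the 9 calls 7 remained. Kpna3 (log2 fold change -0.16, adjusted p = 0.14) and Xpo1 (-0.18, adjusted p = 0.17) were lost, and Ipo7 was at -0.44 in place of -0.70.

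Several GC-rich members passed only in that fit. They were Tnpo2 (53.5% GC, log2 fold change -0.36, adjusted p = 0.018), Nup214 (53.8% GC, -0.30, adjusted p = 0.034), Nup62 (57.4% GC, -0.36, adjusted p = 0.035) and Nup188 (54.3% GC, -0.24, adjusted p = 0.0498). Tnpo2 also passed with the replicate block added. Ipo4 moved to -0.68. Which nucleoporins passed thus depended on this setting, while Ran (-0.43), Xpot (-0.47), Ipo7, Ipo4, Ipo11, Kpna4 and Tnpo3 were called both with and without it.

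**Figure D4:**
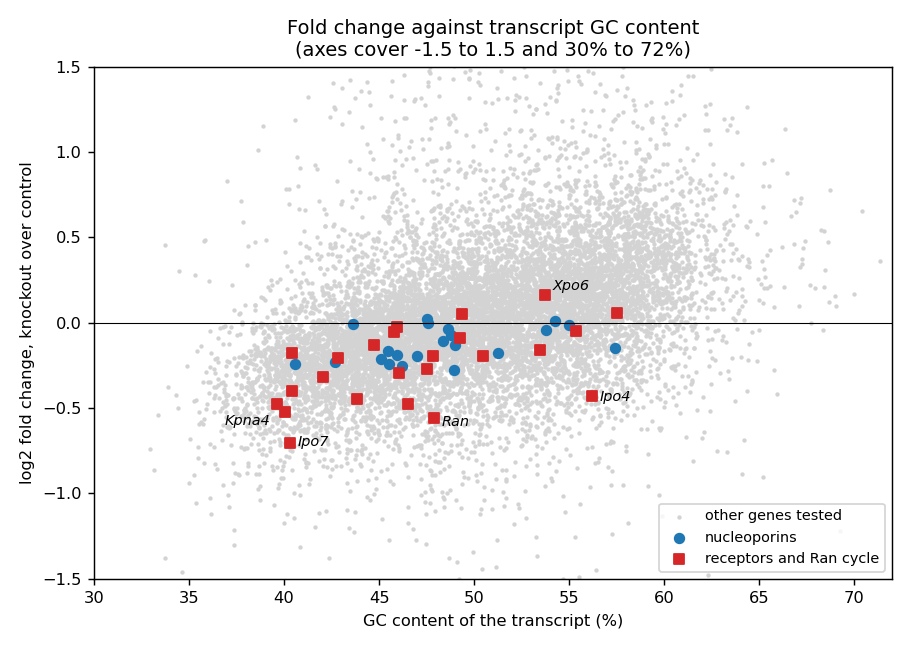
Log2 fold change (y axis) against GC content of the transcript (x axis, %) for nucleoporins (circles), receptors and Ran cycle genes (squares) and the other tested genes (grey; some lie outside the axes). The members follow the slope of the grey cloud and lie mostly in its lower part, with Ipo4 the lowest member on the GC-rich side.

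RefSeq promoter windows (GRCm38.p6, 250 bases before to 50 after a gene's start) were found for 36 of the 45 members and 9319 tested genes. These RefSeq starts can differ from the GENCODE positions given above. The Ipo4 window (chromosome 14, 55635635 to 55635934) lies wholly inside the GENCODE gene. The E-box CACGTG, which reads the same on both strands, occurred in the windows of 9 of the 36 members (25.0%). The share was 12% for the tested genes, 15.7% for all genes called lower and 7.74% for those called higher. Among all genes in the promoter table it was 8.09%. Of the 8 called members with a window 4 held it (Ran, Ipo7, Xpot and Ipo4), and of the 28 not called 5 did (Nup188, Nup54, Nup93, Ranbp2 and Tnpo2). Nup188 and Tnpo2 held it at 2 places each. Nucleoporins (4 of 17) and receptors with Ran cycle genes (5 of 19) both held it at shares near that of all members. No binding was measured in this series, and a match does not show a site in use. The stretches of all 4 called members with a match are shown. Their calls also held once those trends on length and GC had been taken out. The E-box is in capitals, the strand is that of the gene, and up to 50 bases flank the E-box on each side:
Ran (chr5:129019988-129020093, plus strand, E-box from -118): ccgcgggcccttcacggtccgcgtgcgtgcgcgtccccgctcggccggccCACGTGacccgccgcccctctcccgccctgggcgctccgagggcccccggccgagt
Ipo7 (chr7:110018128-110018233, plus strand, E-box from -137): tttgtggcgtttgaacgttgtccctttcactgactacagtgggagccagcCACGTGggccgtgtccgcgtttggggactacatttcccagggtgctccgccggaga
Xpot (chr10:121626508-121626582, minus strand, E-box from -231): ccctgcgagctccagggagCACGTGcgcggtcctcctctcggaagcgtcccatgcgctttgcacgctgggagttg
Ipo4 (chr14:55635655-55635720, minus strand, E-box from 15 after the start): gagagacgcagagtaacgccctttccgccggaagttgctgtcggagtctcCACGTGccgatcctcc

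Other genes of the same pathway, whose symbols lie outside the rule, included 11 that fell. Of 40 such genes tested, 11 fell, 0 rose and 29 did not pass, while 8.51% of all tested genes were called lower and 7.98% higher. At an unadjusted edgeR p under 0.05, 15 were lower and 0 higher, against 2122 and 2189 of the 12035 genes tested. Their median log2 fold change was -0.18, against 0.00 for all tested genes. DESeq2 and limma-voom called 11 and 10 of them lower and 0 higher, against 10% and 7.56% of all tested genes called lower. Without control replicate 2, 0 of them passed, against 0.317% of all tested genes, and without control replicate 3, 2 did, against 1.98%. With the length and GC trends removed 8 fell, against 6.25% of all tested genes called lower.

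Among 10 genes of the Ran cycle and of transport adaptors, 4 fell. Nmd3, the adaptor that links the large ribosomal subunit to Xpo1, went from 40.4, 42.0 and 47.7 CPM in the controls to 24.8 and 26.1 CPM in the knockouts (1.70-fold lower, log2 fold change -0.77, with SE 0.11 and adjusted p = 0.011 in edgeR). It kept its call in 14 of 15 alternatives, as did Ipo7. Ranbp1, which helps Rangap1 to act on Ran, went from 80.8, 97.8 and 89.3 CPM to 51.3 and 62.6 CPM (log2 fold change -0.65, with SE 0.12 and adjusted p = 0.017 in edgeR). Cse1l, the exportin that returns importin alpha to the cytoplasm, had a log2 fold change of -0.44 (with SE 0.089 and adjusted p = 0.022 in edgeR) and lost its call with the length and GC trends removed (-0.17). Phax, the adaptor for export of small nuclear RNAs, had one of -0.44 (SE 0.095, edgeR adjusted p = 0.026). Rcc1, the exchange factor that loads Ran with GTP, had 23.6, 18.0 and 20.3 CPM in the controls and 24.8 and 22.5 CPM in the knockouts (log2 fold change 0.19, edgeR adjusted p = 0.36). Of the Ran cycle genes described so far, Ran and Ranbp1 thus fell, whereas Rangap1 and Rcc1 did not pass. From the same 10 genes, Nutf2 did not pass either (log2 fold change -0.46, edgeR adjusted p = 0.058). Its knockout libraries both lay below all controls. Ranbp3 had a log2 fold change of 0.12 (edgeR adjusted p = 0.32), with both knockout libraries above all controls.

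Of 12 pore proteins outside the rule, Seh1l and Tmem33 fell and 10 did not pass. Seh1l belongs to the outer ring and also to a complex that senses amino acids at the lysosome. It was at 79.4, 78.0 and 82.3 CPM in the controls and 49.7 and 56.7 CPM in the knockouts (1.50-fold lower, log2 fold change -0.59, with SE 0.089 and adjusted p = 0.012 in edgeR). None of the 6 outer ring genes described above passed in that fit. Tmem33, a membrane protein of the endoplasmic reticulum and nuclear envelope, was 1.57-fold lower (log2 fold change -0.65, with SE 0.11 and adjusted p = 0.014 in edgeR). Of 18 genes of messenger RNA export, 5 fell. Ncbp1, the large subunit of the cap-binding complex, was 1.33-fold lower (log2 fold change -0.41, with SE 0.082 and adjusted p = 0.021 in edgeR). The export factor Alyref (log2 fold change -0.48, edgeR adjusted p = 0.038) and the THO complex genes Thoc5 (-0.42, edgeR adjusted p = 0.034) and Thoc2 (-0.31, edgeR adjusted p = 0.040) also fell, as did Thoc1 (-0.33, edgeR adjusted p = 0.047), and Thoc2 was at 0.00 with the length and GC trends removed.

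**Figure D5:**
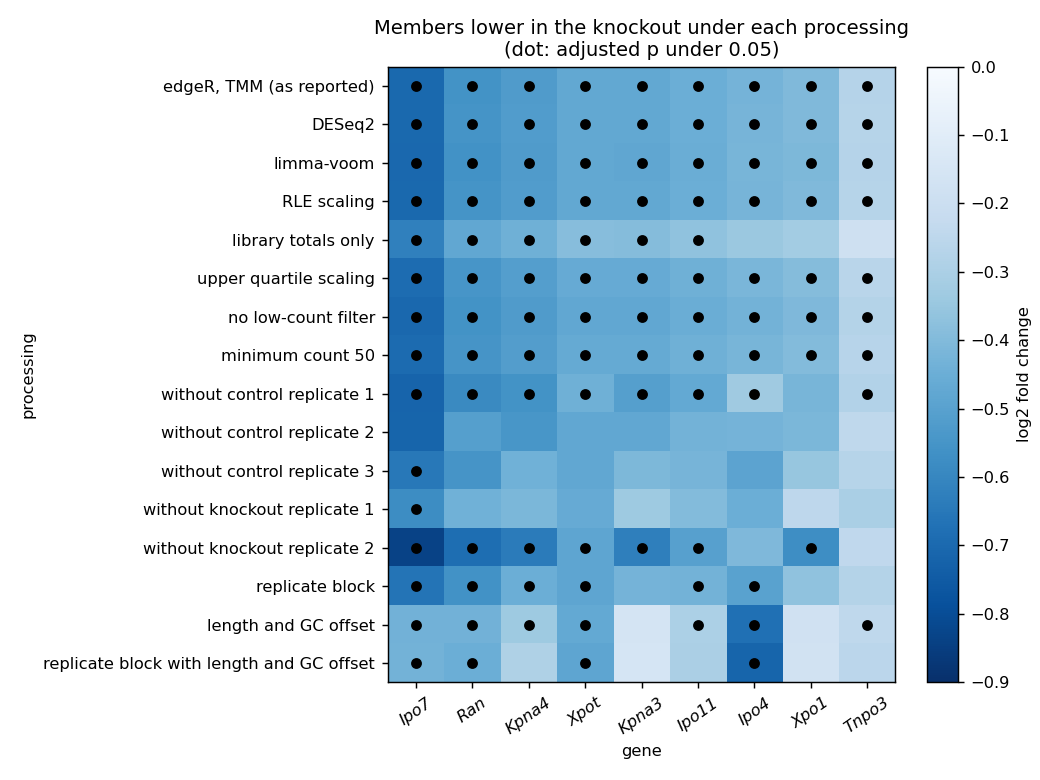
Log2 fold change (colour) of the 9 members that fell, under the processing reported here (top row) and 15 alternatives (other rows). A dot marks an adjusted p under 0.05: the row without control replicate 2 has no dot, those without control replicate 3 and without knockout replicate 1 have 1 each, for Ipo7, and no cell is above 0.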

How the data were processed

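Unnormalized read counts by gene symbol, in a single file for the 5 libraries, are what the authors deposited. Per the submitters' processing notes, which give neither roles nor order, the build was mm10 and the tools were HTSeq 0.6.1, TopHat2 2.0.13, Trim Galore 0.3.7, DESeq2 and Cufflinks 2.2.1. Annotation, strand setting and the choice of symbols: not given in the sources used here. Groups came from the sample titles.

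Counts were tested in R 4.3.3 with edgeR 4.0.16 (filterByExpr with minimum count 10, which left 12035 genes, TMM, estimateDisp, glmQLFit and glmQLFTest, with the group as the only term). The Benjamini-Hochberg adjustment ran over the 12035 genes, and calls needed an adjusted p under 0.05. The SE is the log2 fold change over the square root of F, and 95% intervals use the fit's total degrees of freedom. The biological coefficient of variation was 14.1%. No libraries of a group agreed within sampling noise (chi-square over degrees of freedom 9.98 to 23.4). The spread behind each p-value is that between pools of lenses. DESeq2 1.42.0 and limma 3.58.1 gave alternatives.

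Positions, lengths and GC content came from GENCODE vM21 (GRCm38), by symbol, from the longest protein-coding transcript where there is one (45 of 45 members, 98.1% of tested genes). Copies were transcripts of other genes with at least 95% identity over at least 200 bases (blastn). They were found for 13 members, and exons of other genes overlapped those of 15.

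The members, roles and lists were chosen with earlier results of these data known. Named were called members, in each role the member with the smallest adjusted p and the one with the highest level per kilobase, and up to 4 called genes per pathway list. Other members and other pathway genes named with values were chosen after their values were seen.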

Additional observations from a re-analysis of the deposited data

How the results depend on the processing

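The 9 called members kept a log2 fold change below 0 in each of 15 alternatives, but 0 of them passed in all 15. Of the 36 others, 7 passed in at least 1 alternative, 20 were below 0 in every one and 16 changed sign in at least 1. Leaving out 1 library gave 0 to 9 members lower (0 higher throughout) with medians of -0.18 to -0.13, and 0 to 9 other pathway genes lower and 0 to 1 higher. With 1 knockout library left out, the lone one is assumed to vary like the controls. With library totals as the only scaling the members' median was -0.10, with 6 members lower.

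Replicate numbers are shared by the titles of both groups, but nothing says that they pair the samples. Deviations from the group means correlated across genes at -0.07, -0.04 and 0.11 between control replicates 1 to 3 and knockout replicate 1. With knockout replicate 2 the values are the same with the opposite sign, because deviations of 2 libraries from their mean mirror each other. These correlations therefore cannot decide whether the samples were paired. With the replicate number as a block, 6 of 45 members and 7 of 40 other pathway genes were lower, against 4.34% of all genes. Control replicate 3, which has no knockout of its number, stood alone in its block. With the replicate block and the length and GC offset together, 5 and 3 were, against 3.49%.

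Of the 16 members that changed sign, those named singly in the report did so as follows on the log2 scale. With the length and GC trends removed, Ipo13 was at -0.23, Ipo9 at -0.048, Kpna2 at 0.19, Nup188 at -0.24, Nup98 at -0.026 and Xpo6 at -0.036. With the replicate block added to that offset they were at -0.22, -0.051, 0.29, -0.28, -0.057 and -0.073. With the replicate block alone, Kpna2 was at 0.11, Nup188 at -0.055 and Nup98 at -0.010. With library totals only, Ipo8 was at 0.030, Kpna2 at 0.059, Nup210 at 0.069, Nup214 at 0.039 and Rangap1 at 0.037. With 1 library left out, Ipo13 ranged from -0.034 to 0.15, Ipo8 from -0.18 to 0.066, Kpna2 from -0.11 to 0.12, Nup188 from -0.048 to 0.10, Nup210 from -0.11 to 0.10, Nup214 from -0.094 to 0.045, Nup98 from -0.0019 to 0.073 and Rangap1 from -0.15 to 0.057. The others were Nup107, Nup37, Nup43, Nup35 and Nup93, which were above 0 under the length and GC offset and, but for Nup43 and Nup35, also with library totals only, and Nup133, which was so with library totals only. The cause of these changes was not tested. With 3 and 2 libraries, log2 differences near the SE of a gene are not resolved.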
